A study of Mus musculus with 6 samples.

Results

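The lower jaw of the mouse, taken with its teeth, was compared with a bone of the forearm, the ulna, over the whole genome. Mandible was measured on 2 arrays and ulna on 2 arrays, out of 6 in the series. The remaining 2 arrays, of calvaria, entered the estimate of the spread between arrays. They also counted in choosing which probe sets were tested and which probe set stands for a gene. The mice were skeletally mature males of 24 to 26 g, given in the methods as Black CD57, and the pilot for which they were killed used 10 mice in 2 groups. No animal carried a genetic change or received a treatment. The mandible is labelled as including teeth, the ulna as freed of soft tissue and epiphyses, and the calvaria as freed of sutures. The number of mice behind an array, and whether marrow was removed from the mouse bones, are not given in the sources used here. The arrays of a site are therefore treated as separate samples, and p-values measure only the spread between them, which may be technical.

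The mandible arises from cranial neural crest of the first pharyngeal arch, a region in which Hox genes are silent and in which the nested expression of Dlx genes sets the lower jaw apart from the upper. It carries the teeth. The incisor of the mouse grows throughout life from epithelial and mesenchymal progenitors at its root end, so that ameloblasts, the epithelial cells that secrete enamel, and odontoblasts, the mesenchymal cells that secrete dentine, are still at work in the adult. The ulna arises from the lateral plate mesoderm of the limb under the control of Hox genes, and its shaft encloses a cavity filled with marrow, in which red cells, platelets, neutrophils and B cells are made.

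Values are MAS5 signals, the linear brightness that Affymetrix software gives for each probe set, a group of short probes against a transcript. Signals were scaled by the median of their array, which was 33.6 and 33.2 on the mandible arrays and 31.0 and 30.6 on the ulna arrays, and differences are mandible minus ulna on the log2 scale of these scaled signals. Signals quoted for single arrays are as deposited. The arrays of a site resembled each other more than they did those of the other site (Pearson r over probe sets 0.956 for mandible, 0.952 for ulna and 0.797 to 0.803 between them). Tests were limited to the 25233 of 45101 probe sets that exceeded the median of their array on 2 or more of the 6 arrays. They stand for 12326 genes, each represented by its brightest tested probe set. A gene above the median on the mandible arrays alone could be called higher in mandible but not lower, and the reverse holds for the ulna arrays. For such genes the absence of calls in the other direction was set by the filter.

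Mandible and ulna differed across a large part of the genome, and the largest differences were gains in mandible. With limits of 0.05 on the adjusted p and of 2-fold on the change, limma called 5224 probe sets (20.7% of those tested), of which 2362 (9.36%) were higher and 2862 (11.3%) lower in mandible. Among genes, 2693 (21.8%) were called, with 1351 (11%) higher and 1342 (10.9%) lower. Which direction held more probe sets depended on the scaling, since 2714 were higher and 2272 lower with values as deposited, 2566 and 2434 with quantile normalization and 2684 and 2345 with 75th percentile scaling. The sizes were less even than the counts. The median change of a called gene was 3.52-fold for those higher and 2.59-fold for those lower in mandible. At least 16-fold separated the sites for 108 genes higher in mandible and for 4 genes lower, and at least 64-fold for 27 genes and 0 genes. The median difference of all tested genes was −0.08, and that of all probe sets moved from −0.13 to −0.02 when the values were taken as deposited, so small differences depend on the scaling. In the bulk RNA of a whole bone, fewer cells of a type and less RNA per cell cannot be told apart, and this holds for every difference given here.

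**Figure D1:**
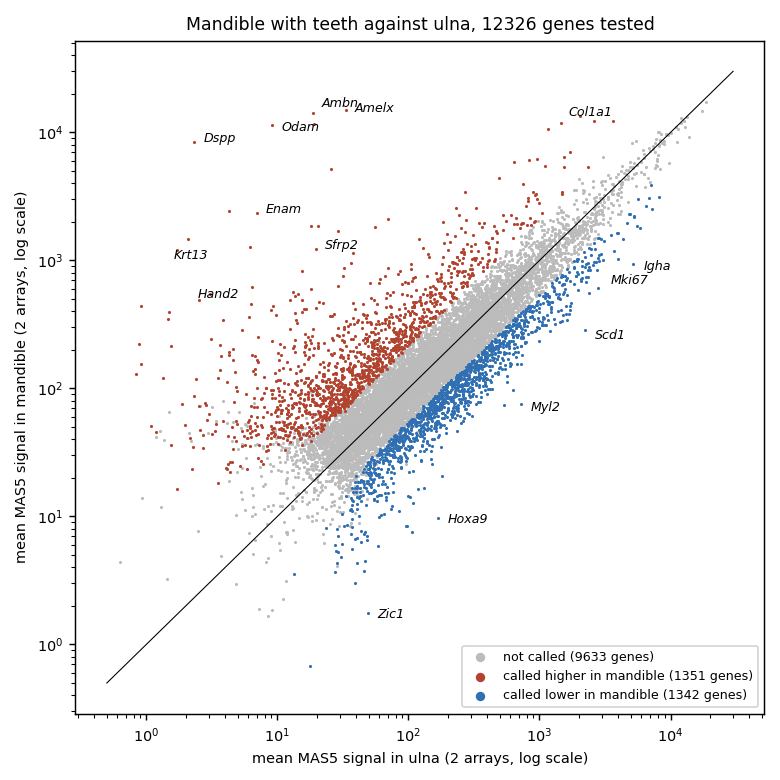
Mean MAS5 signal of each of the 12326 genes tested in ulna (x axis) and mandible (y axis), both on log scales without units, with 1351 genes called higher in mandible in red, 1342 called lower in blue and the rest in grey. The line marks equal signal, and genes of enamel and dentine lie far above it at the left, while the genes lower in mandible lie closer to it.

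Many of the large folds come from genes near the floor of the array at the lower site. Of the 1351 genes higher in mandible, 492 lay below the array median on both ulna arrays, and of the 1342 lower genes, 199 lay below it on both mandible arrays. With every signal under the array median set to that median, 1121 of the 1351 higher calls (83%) and 1181 of the 1342 lower calls (88%) held. For most of the genes named that lay near the floor, the difference under this setting is given beside the fitted one and called the floored difference.

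The 15 largest fitted gains in mandible among genes above the array median on both mandible arrays were Dspp, Odam, Krt6b, Nts, Ambn, Krt13, Amtn, Rptn, Amelx, Enam, Sprr3, Klk4, Serpinb3a, Mmp20 and Lce3f. Except for Nts, the precursor of the peptide neurotensin, these encode proteins of enamel, dentine or stratified epithelium. Nts read 1271 and 1147 on the mandible arrays and 0.872 and 2.54 on the ulna arrays, a difference of 9.55 ± 0.54 (SE, adjusted p = 2.47e-07) and a floored difference of 5.18. Serpinb3a, a serine protease inhibitor of squamous epithelium, read 241 and 206 against 1.00 and 0.755 (floored 2.74). Lce3f, a gene of the late cornified envelope, read 580 and 506 against 5.01 and 1.15 (floored 4.02). The 15 were chosen among genes whose mandible arrays both lay above both ulna arrays, a property of 4710 of all genes tested (38.2%), so that this holds for them by choice. The fitted differences of 3 of them rested on values so low in ulna that the call was not kept when either mandible array was left out. These were Rptn (8.86 and 8.76 without the first and the second mandible array), Klk4 (8.01 and 8.27) and Serpinb3a (7.78 and 7.99). Ordered by the floored difference, an order chosen after the values had been seen, the gains were led by Ambn, Amelx, Amtn, Odam and Dspp, followed by Calb1, Krt6b, Enam, Chil4, Krt14, Krt4, Krt13, Mmp20, Sfrp2 and Nts. Rptn, Sprr3, Klk4, Serpinb3a and Lce3f were then no longer among the first 15.

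**Figure D2:**
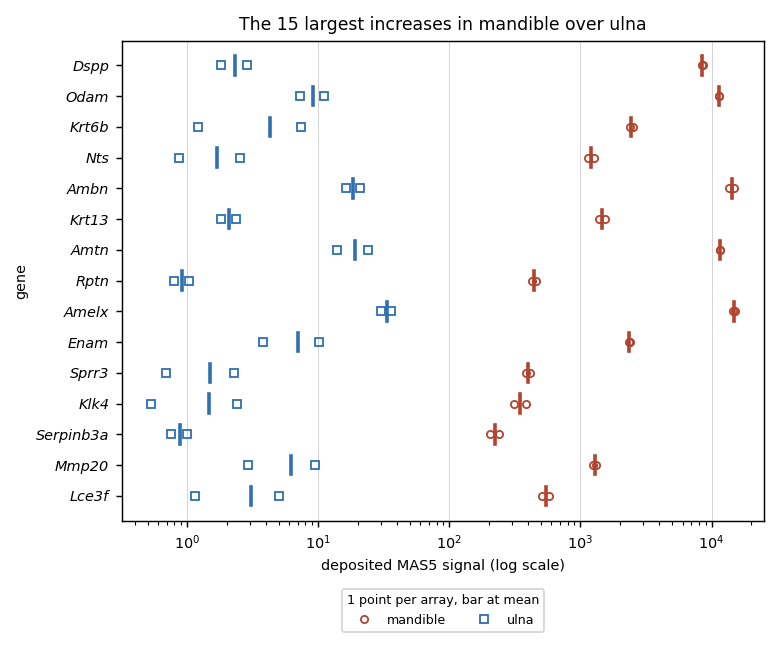
Deposited MAS5 signal (x axis, log scale, without units) of the 15 genes with the largest increases in mandible (y axis), with 1 point per array and a bar at the mean of each site. Mandible arrays read between 206 and 15135 and ulna arrays between 0.532 and 36.1, and the genes were chosen among those whose sites do not overlap.

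Genes of enamel formation had the largest median difference of the 35 lists. Of 20 genes listed, 13 were tested, and 11 of these were higher in mandible and 0 lower, with a median difference of 7.80 beside −0.08 for all genes. The size of this median rests on ulna signals near the floor, and it was 3.37 with the floor and 5.16 with an offset of 0.25 added before the log, still the largest of the lists. Ambn, Amtn, Odam, Enam, Mmp20 and Klk4 passed the filter through the mandible arrays alone and could not have been called lower. Amelx, which encodes amelogenin, the main protein of forming enamel, read 15135 and 14643 on the mandible arrays and 36.1 and 30.3 on the ulna arrays. Its difference was 8.70 ± 0.72 (SE, adjusted p = 3.61e-06), and with the floor it was 8.69. Ambn, encoding ameloblastin, an adhesive enamel matrix protein, read 13634 and 14869 against 20.9 and 16.2, and had the smallest adjusted p of this group, 1.14e-10. Both lay near or under the array median in ulna, and the floored difference of Ambn was 8.74.

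The third structural protein of the enamel matrix, enamelin, was also high in mandible. Enam read 2344 and 2377 in mandible and 10.1 and 3.81 in ulna, a difference of 8.45 ± 0.73 with a floored difference of 6.14. Amtn and Odam, which encode proteins laid down beneath ameloblasts as enamel matures and where gum epithelium attaches to the tooth, were as far apart. Amtn read 11673 and 11564 against 13.8 and 24.2, and Odam 11463 and 11332 against 11.0 and 7.31. Their floored differences were 8.44 and 8.42.

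Proteases that clear the enamel matrix followed the matrix genes. Mmp20, the metalloproteinase of the secretory stage, read 1322 and 1242 against 9.50 and 2.94, a difference of 7.80 ± 0.65 with a floored difference of 5.26. Klk4, the serine protease of the maturation stage, read 381 and 313 against 0.532 and 2.40, with a floored difference of 3.37. Genes of both stages were thus present in these mandibles. The enamel genes tested but not called were Ltbp3 (0.82) and Cftr (4.52, adjusted p = 0.0797, floored 1.23). Summed over the 13 tested genes, the signal was 57503 and 58201 on the mandible arrays and 715 and 678 on the ulna arrays.

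Promoters of enamel genes are shown because these genes moved together. RefSeq windows of 300 bases (250 before and 50 after the start of the gene, assembly GRCm38.p6) were at hand for 9 of the 11 enamel genes higher in mandible. The 5 secreted matrix proteins with the largest differences, Odam, Ambn, Amtn, Amelx and Enam, each held the letters TGATTGG once, at 49 to 72 bases before the start, which contain an inverted CCAAT box. The letters were chosen after the sequences had been seen, and the capitals mark them. Each window is written 5′ to 3′ on the strand of its gene.
Amelx: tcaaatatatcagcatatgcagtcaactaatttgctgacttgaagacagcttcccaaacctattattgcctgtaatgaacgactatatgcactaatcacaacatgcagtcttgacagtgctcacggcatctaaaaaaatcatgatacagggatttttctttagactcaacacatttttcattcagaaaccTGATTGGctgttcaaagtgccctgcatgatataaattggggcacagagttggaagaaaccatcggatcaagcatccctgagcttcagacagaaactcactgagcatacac
Ambn: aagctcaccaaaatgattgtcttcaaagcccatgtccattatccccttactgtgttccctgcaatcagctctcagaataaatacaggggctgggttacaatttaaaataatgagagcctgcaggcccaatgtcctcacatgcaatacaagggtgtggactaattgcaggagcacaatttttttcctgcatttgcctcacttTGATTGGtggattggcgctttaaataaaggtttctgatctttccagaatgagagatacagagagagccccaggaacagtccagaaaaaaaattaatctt
Enam: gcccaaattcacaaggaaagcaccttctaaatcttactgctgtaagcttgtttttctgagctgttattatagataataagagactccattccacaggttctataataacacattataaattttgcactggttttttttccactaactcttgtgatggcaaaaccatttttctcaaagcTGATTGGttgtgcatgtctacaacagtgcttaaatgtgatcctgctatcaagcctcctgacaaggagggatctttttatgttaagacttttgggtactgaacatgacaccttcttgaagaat
Amtn: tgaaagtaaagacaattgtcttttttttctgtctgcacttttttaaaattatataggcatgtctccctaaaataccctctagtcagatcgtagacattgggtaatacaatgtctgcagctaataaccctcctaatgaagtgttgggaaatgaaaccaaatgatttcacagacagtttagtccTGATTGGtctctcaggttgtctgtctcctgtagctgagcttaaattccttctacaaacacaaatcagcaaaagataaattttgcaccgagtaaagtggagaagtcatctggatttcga
Odam: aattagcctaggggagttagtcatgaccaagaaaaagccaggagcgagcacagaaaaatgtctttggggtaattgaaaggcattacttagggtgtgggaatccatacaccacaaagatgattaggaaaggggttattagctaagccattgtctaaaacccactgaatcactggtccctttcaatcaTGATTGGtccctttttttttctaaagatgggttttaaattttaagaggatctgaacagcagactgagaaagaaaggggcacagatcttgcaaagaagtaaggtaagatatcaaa
The windows lie at chrX:169187160-169187459 on the minus strand for Amelx, and on the plus strand at chr5:88455741-88456040 for Ambn, chr5:88487725-88488024 for Enam, chr5:88375858-88376157 for Amtn and chr5:87884760-87885059 for Odam.

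On either strand, TGATTGG stood in the windows of 6 of the 9 enamel genes, the sixth being Slc4a4, a bicarbonate transporter, and not in those of Klk4, Mmp20 and Slc24a4, an ion exchanger. It stood in a window of 9% of all 27025 genes with a promoter entry, 11.5% of the 9946 tested here, 9.78% of the 1023 higher in mandible and 13.5% of the 1087 lower in mandible. Genes called higher as a whole did not hold it more often than all tested genes, and a match of letters is a description and no site of binding. Ambn and Enam are neighbours on chromosome 5 in this assembly and Amtn is separated from Ambn by 1 gene. Dspp, Dmp1, Ibsp and Mepe form another row on the same chromosome, with 1 gene between Dmp1 and Ibsp.

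Dentine genes were higher in mandible, and one of them, Dspp, led the order of fitted gains, although its first place rests on ulna signals far below the array median. Dspp encodes dentine sialophosphoprotein, the main phosphoprotein that odontoblasts secrete. It read 8582 and 8383 on the mandible arrays and 2.85 and 1.80 on the ulna arrays, a difference of 11.75 ± 0.50 (SE, adjusted p = 3.38e-08) and a floored difference of 7.99, which lay behind those of Ambn, Amelx, Amtn and Odam. Of 14 genes listed for dentine and its phosphoprotein family, 12 were tested and 10 were higher, 0 lower, with a median difference of 1.88. Dspp passed the filter through the mandible arrays alone and could not have been called lower. This list overlaps others, since 7 of its 14 genes stand in another list as well. Of these, Wnt10a is shared with the Wnt list and the rest with the osteoblast or osteocyte lists.

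The rest of the dentine list differed by less than Dspp did. Ano1, a calcium-activated chloride channel, read 298 and 297 against 32.5 and 25.7 (3.25 ± 0.17). Wnt10a, a Wnt ligand needed for normal teeth, read 209 and 153 against 14.2 and 23.3 (3.18 ± 0.50, floored 2.42). Phex, a membrane peptidase of mineralising cells, read 2376 and 2179 against 241 and 242 (3.12 ± 0.09). These were differences of about the size seen in genes of bone matrix. Smpd3, a sphingomyelinase required for mineralisation of bone and dentine, differed by 2.75 (floored 1.45) and Col24a1, a minor fibrillar collagen, by 2.01. The members not called were Dmp1 (0.98 ± 0.08) and Mepe (0.83 ± 0.08), phosphoproteins that osteocytes also make, which passed the adjusted p and missed the limit of 2-fold.

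Keratins and other genes of stratified epithelium rose with the tooth genes. Of 44 epithelial genes listed, 33 were tested, 23 were higher in mandible and 0 lower, with a median difference of 3.53. Members such as Krt6b, Krt13 and Krt14 passed the filter through the mandible arrays alone and could not have been called lower. Krt6b, a keratin of proliferating and oral epithelium, read 2397 and 2496 in mandible and 7.35 and 1.21 in ulna (9.56 ± 0.67). Krt13, a keratin of the non-cornified oral lining, read 1528 and 1391 against 2.36 and 1.80 (9.35 ± 0.53). Krt14, the keratin of basal cells and of the enamel organ, read 1890 and 1811 against 24.2 and 16.8 (6.40 ± 0.31). Their floored differences were 6.20, 5.45 and 5.79.

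Genes that fasten epithelium to its basement membrane were among those called. Lama3 and Lamb3, chains of laminin 332, differed by 7.01 ± 0.64 and 5.82 ± 0.79 (floored 4.22 and 3.42). Lama3 read 636 and 607 against 11.0 and 1.80, and Lamb3 374 and 342 against 7.92 and 4.29. Krt17 read 132 and 110 against 1.28 and 1.40 (floored 1.85), and its call was not kept without the first (6.25) or the second (6.50) mandible array. The summed signal of the 33 tested genes was 15484 and 15319 in mandible and 718 and 771 in ulna. Ameloblasts, the epithelium of the tooth root, gum and any adhering skin all express keratins, and the part of each was not tested. Esrp2, a splicing factor, was called lower (−1.03) when the first ulna array was left out.

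Genes of cornified mucosa were also higher, in 11 of 19 tested, with 0 lower and a median difference of 2.81 (1.66 with the floor). Members such as Rptn and Sprr3 passed the filter through the mandible arrays alone and could not have been called lower. Rptn, repetin of the cornified envelope, read 430 and 457 in mandible and 1.04 and 0.797 in ulna, with a floored difference of 3.73. Sprr3, a small proline-rich protein of the lining of mouth and gullet, read 416 and 382 against 2.29 and 0.694 (8.19 ± 0.99, floored 3.58). Krt76, a keratin of hard palate and gum, read 104 and 107 against 4.71 and 23.6 (3.21 ± 0.65, floored 1.66). Krtdap differed by 4.31 ± 0.30 (floored 3.79), Calm4, a calmodulin-like protein of cornifying cells, by 3.26 ± 0.41, and Krt16 by 4.68 ± 1.19 (floored 2.81), with no call on Krt16 when the first (4.71) or the second (4.66) mandible array was left out. The cornified list summed to 4297 and 4235 in mandible and 699 and 803 in ulna.

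Salivary genes were mostly too dim to test, since 11 of the 15 with a probe set lay below the filter. Of the 4 tested, Car6, the secreted carbonic anhydrase of saliva that maturing enamel organ also makes, read 494 and 491 in mandible and 9.74 and 15.1 in ulna (5.23 ± 0.36, adjusted p = 1.03e-06, floored 3.88). Amy1, the amylase, went the other way at 84.7 and 72.1 against 164 and 158 (−1.16 ± 0.17). The defining secretory genes Bpifa2 and Smr3a read no more than 22 on any mandible array.

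Transcription factors that pattern the jaw and the teeth were higher in adult mandible. Of 36 listed, 27 were tested, 20 were higher and 0 lower, with a median difference of 2.53. Members that passed the filter through the mandible arrays alone could not have been called lower. Hand2, which sets lower jaw identity in the embryo, read 462 and 454 on the mandible arrays and 3.38 and 9.29 on the ulna arrays, a difference of 6.24 ± 0.62 (SE, adjusted p = 1.41e-05) and a floored difference of 3.78. Msx2, a homeobox gene of dental and skull mesenchyme, read 353 and 403 against 11.5 and 8.14 (5.17 ± 0.37, floored 3.50). Alx1, a homeobox gene of facial mesenchyme, read 202 and 239 against 10.2 and 10.8 (4.27 ± 0.29, floored 2.72). For all of them the mandible arrays lay far above and the ulna arrays below the array median.

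The Dlx genes, singled out as a family after their values were seen, followed. All 6 of those on the list, Dlx1 to Dlx6, were tested and called higher, with differences from 1.52 for Dlx5 to 7.17 for Dlx1. Dlx1 read 127 and 133 in mandible and 0.962 and 0.720 in ulna, and Lhx8, a LIM homeobox gene of the oral side of the arch, read 156 and 156 against 0.953 and 0.877 (7.30 ± 2.17). Their floored differences were 1.96 and 2.23. Dlx1 was not called without the first (7.21) or the second (7.13) mandible array, and neither was Lhx8 (7.31 and 7.29). Dlx6 (2.65, floored 0.52) was not called without the first mandible array (2.03) or the first ulna array (1.38). Isl1, a LIM homeobox gene of the distal jaw and of incisor epithelium, read 197 and 160 against 3.35 and 10.1 (4.82 ± 0.96, floored 2.41).

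Hox genes, which give limb segments their identity, were nearly all dim at both sites. Of 40 listed, 34 had a probe set, 28 of these lay below the filter and 6 were tested. Of the 6, 2 were lower in mandible and 1 higher (33.3% and 16.7%, beside 10.9% and 11% of all genes). The median was −1.50 (−0.49 with the floor). Hoxa9 read 164 and 174 in ulna and 2.01 and 17.4 in mandible, a difference of −4.95 ± 0.79 (adjusted p = 0.000476) and a floored difference of −2.46. It was called without each array in turn, at −6.52 to −3.38. Hoxd8 read 47.6 and 64.1 in ulna against 24.0 and 23.1 (−1.35 ± 0.44, floored −0.84), and Hoxa3, an anterior member, read 39.5 and 53.9 in mandible against 22.5 and 12.3 (1.36 ± 0.44, floored 0.47). Hoxd8 lost its call without any of the 4 arrays (−1.57 to −1.13) and Hoxa3 without either mandible array (1.59 and 1.13) or the second ulna array (0.93), so the list held 0 to 1 higher and 1 to 3 lower genes as single arrays were left out. Hoxa10, at 56.5 and 39.9 in ulna and 8.93 and 18.2 in mandible, had an adjusted p of 0.0514 and a floored difference of −0.63 and was not called, but was without the second mandible array (−2.54), as was Hoxb4 (−2.49).

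**Figure D3:**
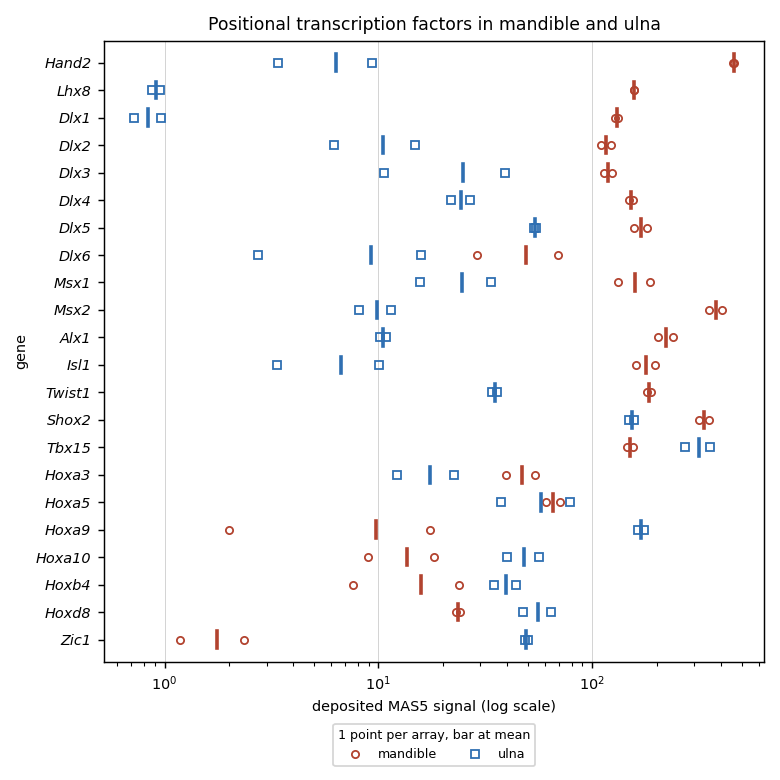
Deposited MAS5 signal (x axis, log scale, without units) of 22 transcription factors (y axis), with 1 point per array and a bar at the mean of each site. Hand2 to Twist1 are jaw and dental genes and lie higher in mandible, Shox2 and Tbx15 are limb genes and go in opposite directions, and Hoxa9 (164 and 174 in ulna) is the Hox gene with the widest gap.

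Genes of limb patterning showed no common direction. Of 14 tested, 6 were higher and 2 lower in mandible (42.9% and 14.3%, beside 11% and 10.9% of all genes), with a median of 0.87. Shox2, which shapes the upper segment of the limb and also forms in the jaw joint, was higher in mandible, at 351 and 315 against 148 and 158. Its difference of 1.00 ± 0.18 lay at the limit of 2-fold, and it was not called without the first mandible array (0.93) or the first ulna array (0.95). Tbx15 was lower in mandible, at 155 and 145 against 272 and 357 (−1.17 ± 0.18), and was not called without the second ulna array (−0.96). Tbx18 was also lower, at 1.13 and 12.8 against 26.3 and 31.9, but its ulna signal was at the array median or under it, and its floored difference was −0.03. It was not called without the first mandible array (−1.28), either ulna array (−3.19 and −2.90) or either calvaria array (−3.04 each), so that without the second ulna array no limb gene was called lower.

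Several limb genes are shared with the face. Hand2 and Prrx2 stand in both lists, and Gli3, Tbx3 and Tbx2 were higher in mandible by 2.09, 2.30 (floored 1.81) and 1.54. Tbx5, the forelimb selector, lay below the filter, at 14.4 and 5.44 in ulna and 13.4 and 1.83 in mandible, so the forelimb label of the ulna was not borne out by this gene at the sensitivity of the array. Among genes of the upper head, Foxd1, Tfap2a and Tfap2b were higher and Zic1 lower in mandible, of 12 tested. These shares, 25% and 8.33%, stand beside 11% and 10.9% of all genes. Tfap2a and Tfap2b, neural crest factors at 2.76 and 3.09 (floored 1.74 and 0.31), are also on the jaw list, and Tfap2b was not called without the first (3.02) or the second (3.16) mandible array. Zic1 read 2.35 and 1.18 in mandible and 49.9 and 48.2 in ulna, the largest fitted fall among the genes named here (−5.0 ± 0.35), with a floored difference of −0.67. Foxd1 (2.26) lay under the median on all 4 arrays, so that it was tested only through the calvaria arrays. Its floored difference was 0, and it was not called by limma with 4 arrays only (adjusted p = 0.122).

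Osteoblast genes were higher in mandible almost without exception, in 19 of 20 tested with 0 lower, and a median difference of 2.10. Col1a1, encoding the main chain of type I collagen, read 12080 and 11704 on the mandible arrays and 1494 and 1420 on the ulna arrays (2.91 ± 0.07, adjusted p = 6.57e-10). Alpl, the alkaline phosphatase that frees phosphate for mineral, read 955 and 912 against 106 and 102 (3.05 ± 0.10). Cthrc1, a secreted protein of matrix-forming cells, read 750 and 754 against 58.6 and 73.4 (3.40 ± 0.12). All these signals lay above the array median, so the differences did not rest on the floor. Col5a2 differed by 3.08 and Omd, encoding osteomodulin, by 2.93. Cdh15, a cadherin best known from muscle, was the member not called (0.09).

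Of 12 osteocyte genes tested, 6 were higher (50%, beside 11% of all genes) and 0 lower, with a median of 1.16. With values as deposited, quantile normalization and 75th percentile scaling 9 were higher, and the median was 1.24 to 1.28. Phex (above) led, followed by Pdpn, which encodes a membrane protein of the early osteocyte process and read 468 and 477 against 136 and 93.3 (1.95 ± 0.15). Gja1, the gap junction protein that links osteocytes, read 6053 and 6733 against 1518 and 1575 (1.93 ± 0.07). Ptprz1 and the kinase gene Fam20c differed by 1.59 and 1.46. Tnfsf11, the ligand that drives osteoclast formation, read 37.6 and 43.6 against 12.7 and 17.3 (1.33 ± 0.41), with a floored difference of 0.28 and no call without either mandible array (1.45 and 1.22) or the first ulna array (1.10), nor with the 4 arrays of mandible and ulna alone (adjusted p = 0.0512). Sost, encoding sclerostin of mature osteocytes and named after its values were seen, read 689 and 634 in mandible and 562 and 530 in ulna (0.16 ± 0.09, adjusted p = 0.174).

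Osteoclast genes were split. Of 17 tested, 4 were higher and 1 lower in mandible (23.5% and 5.88%, beside 11% and 10.9% of all genes). The median of the list, 0.44, ranged from −0.11 to 0.44 as single arrays were left out and was −0.02 with the floor. Ctsk, the collagen-degrading protease of the resorbing cell, read 3011 and 3115 in mandible and 799 and 822 in ulna (1.80 ± 0.06, adjusted p = 1.03e-08). Acp5, the tartrate-resistant phosphatase, read 2120 and 1790 against 621 and 862 (1.30 ± 0.14). Sh3pxd2a, a podosome scaffold, differed by 2.01 and Dcstamp, a fusion protein, by 2.13 (floored 0.82). Itgb3, an integrin chain that osteoclasts share with platelets, was lower in mandible, at 222 and 208 against 743 and 694 (−1.86 ± 0.09), as were the platelet genes described further on.

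The machinery that folds, modifies and crosslinks collagen rose with collagen. Of 22 tested genes, 13 were higher and 0 lower, with a median of 1.95. Serpinh1, the collagen chaperone of the endoplasmic reticulum, read 3464 and 3351 in mandible and 265 and 277 in ulna (3.54 ± 0.07, adjusted p = 5.13e-10). Lox, the lysyl oxidase that crosslinks collagen outside the cell, read 2046 and 1912 against 188 and 179 (3.31 ± 0.08). Plod2, the lysyl hydroxylase of the telopeptides, read 2006 and 2125 against 246 and 299 (2.81 ± 0.11). Prolyl hydroxylases were also among them, with P4ha2 at 2.67 and P3h1 at 2.46, and Loxl4 differed by 2.97 ± 0.56 (floored 1.10).

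The general secretory apparatus of the endoplasmic reticulum differed far less. Of 39 tested, 7 were higher and 1 lower (17.9% and 2.56%, beside 11% and 10.9% of all genes), with a median of 0.31. Kdelr3, a receptor that returns resident proteins to the reticulum, read 479 and 464 against 27.7 and 13.7 (4.48 ± 0.25, floored 3.82). Creb3l1, a transcription factor that drives collagen secretion in osteoblasts, differed by 2.55 and Sec24d, a coat protein for large cargo, by 1.91, and these belong to the osteoblast and collagen lists as well. Sec11c, a subunit of the signal peptidase, was lower in mandible, at 552 and 487 against 1183 and 1193 (−1.31 ± 0.08).

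Genes of periodontal ligament and tendon were higher in 23 of 30 tested with 0 lower, and a median of 1.88. Tnn, encoding tenascin W of ligament and periosteum, read 2012 and 2238 in mandible and 78.6 and 62.2 in ulna (4.81 ± 0.14, adjusted p = 2.38e-09). Postn, encoding periostin, the abundant matrix protein of the ligament that anchors the tooth, read 10202 and 10889 against 1226 and 1106 (3.06 ± 0.08). Fbn2, a fibrillin of elastic microfibrils, read 346 and 309 against 13.2 and 15.1 (4.42 ± 0.24, floored 3.29). Col12a1, a collagen that decorates dense fibres, differed by 2.91, Mkx, a tendon transcription factor, by 2.77 (floored 1.26) and Lum, encoding lumican, by 2.58. The list summed to 58442 and 59484 in mandible and 12588 and 13038 in ulna. Ligament, periosteum, dental pulp and bone all make these proteins, and the part of each tissue cannot be told apart here.

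Cartilage genes were higher in 11 of 18 tested and lower in 2 (61.1% and 11.1%, beside 11% and 10.9% of all genes). The median was 2.0 (1.06 with the floor). Col2a1, the main collagen of cartilage, read 813 and 711 in mandible and 23.9 and 39.7 in ulna (4.51 ± 0.32, adjusted p = 1.19e-06). Matn4, a matrilin, read 196 and 217 against 23.3 and 14.8 (3.35 ± 0.21, floored 2.63). Hapln1, which links aggrecan to hyaluronan, read 127 and 98.7 against 5.15 and 3.13 (4.68 ± 0.59, floored 1.75). The ulna is labelled as freed of epiphyses, and site and dissection cannot be told apart here. Cnmd, encoding chondromodulin, differed by 5.64 (floored 0.59) and Col9a3 by 4.60 (floored 0.75), with Col9a3 not called without the first (4.80) or the second (4.41) mandible array. Col10a1, the collagen of hypertrophic cartilage, read 105 and 71.3 against 14.5 and 6.10 (3.08 ± 0.94, floored 1.37) and was not called without either mandible array (2.81 and 3.35) or the second ulna array (2.47). Prg4, the lubricin of joint surfaces, was lower in mandible at 70.8 and 57.6 against 160 and 156 (−1.42 ± 0.23), and so was Sox6 at 111 and 110 against 272 and 268 (−1.41 ± 0.14), a factor that red cell precursors share with cartilage.

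**Figure D4:**
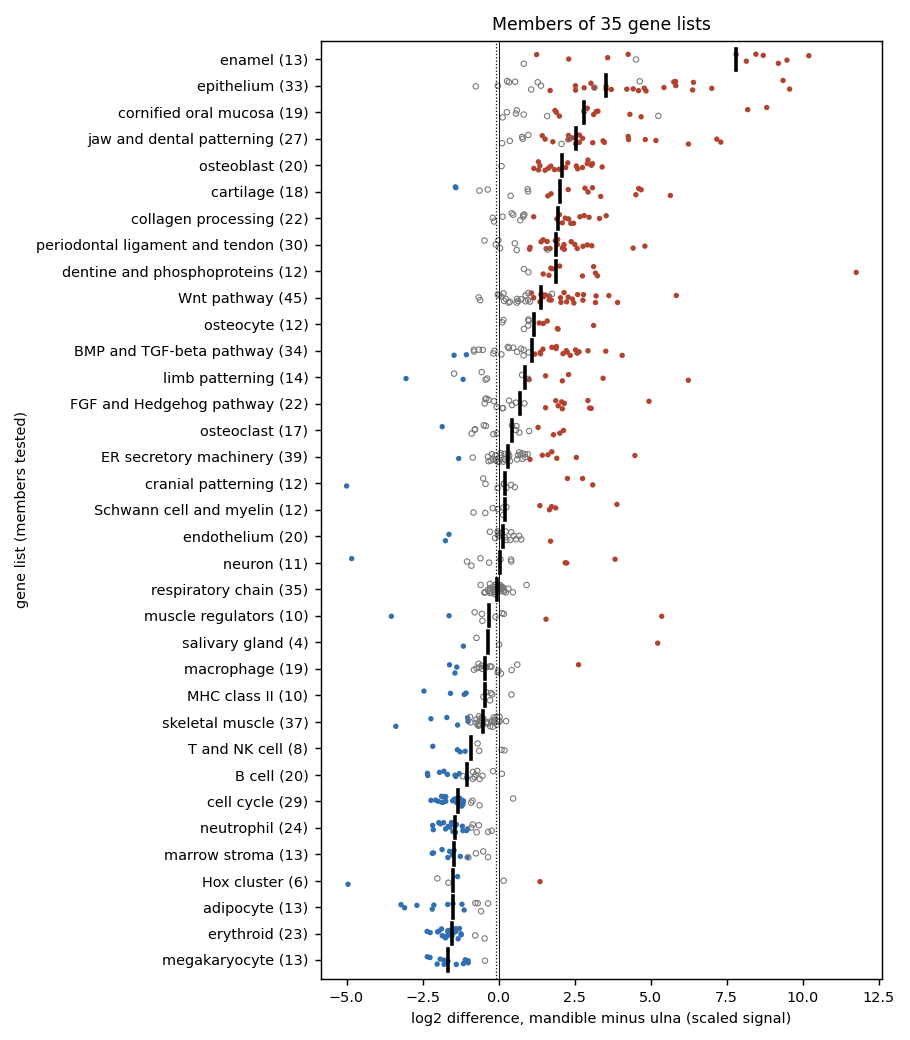
Log2 difference, mandible minus ulna, of the tested members (x axis) of 35 gene lists (y axis, ordered by median, with the number of members tested), with called genes filled in red or blue, others open, a black bar at the median of each list and a dotted line at the median of all genes (−0.08). Enamel (7.80, or 3.37 with the floor) is at the top, followed by epithelium, oral mucosa, jaw patterning and bone, and the megakaryocyte and erythroid lists lie at the bottom.

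Wnt signalling is a pathway of secreted ligands, Frizzled receptors and extracellular inhibitors that governs bone mass and tooth number. Of its 45 tested genes, 25 were higher in mandible (55.6%, beside 11% of all genes) and 0 lower, with a median of 1.39. Under the other scalings 29 to 31 were higher. Whether signalling itself differed was not tested. Inhibitors were among the largest differences. Sfrp2, a secreted decoy of Wnt ligands, read 1302 and 1137 in mandible and 22.3 and 17.2 in ulna (5.84 ± 0.13, adjusted p = 5.44e-10, floored 5.19). Sostdc1, an inhibitor that limits tooth number, read 226 and 196 against 19.6 and 12.7 (3.62 ± 0.30, floored 2.66). Dkk2, a ligand of the co-receptors, read 57.8 and 47.7 against 8.64 and 1.20 (3.91 ± 0.89, floored 0.65). Of the ligands, Wnt10a (above) and Wnt5a, at 329 and 378 against 50.7 and 43.8 (2.79 ± 0.30), stood out. Ror2, a receptor for Wnt5a, read 89.3 and 92.5 against 8.81 and 9.41 (3.20 ± 0.35, floored 1.45). Ligands, receptors and inhibitors were thus all represented among the genes higher in mandible.

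In the BMP and TGF-beta family, growth factors that induce teeth and bone, 17 of 34 tested genes were higher and 2 lower. These shares, 50% and 5.88%, stand beside 11% and 10.9% of all genes, and the median was 1.09. Bambi, a decoy receptor, read 1488 and 1475 in mandible and 135 and 104 in ulna (3.52 ± 0.12, adjusted p = 7.59e-09). Id4 and Smad6, target genes of BMP signalling, differed by 2.64 ± 0.18 and 2.58 ± 0.18. Bmp7, a ligand, read 108 and 140 against 21.8 and 17.8 (2.53 ± 0.43, floored 1.88). Chrd, encoding the BMP-binding chordin, read 54.9 and 39.8 against 2.57 and 2.60 (4.06 ± 0.75, floored 0.49). Fstl3, a binder of activin, differed by 2.94 ± 0.79 (floored 1.19) and was not called without the first (3.0) or the second (2.87) mandible array. The 2 genes lower in mandible both encode BMP antagonists. These were Grem1, at 42.9 and 27.1 against 83.2 and 90.7 (−1.47 ± 0.40), and Chrdl1, at 63.6 and 63.7 against 121 and 124 (−1.06 ± 0.15), and Grem1 was not called without the second mandible array (−1.14) or the second ulna array (−1.39). Chrdl1 lay at the limit of 2-fold and was not called with values as deposited (−0.94), quantile normalization (−0.97), 75th percentile scaling (−0.96) or the offset (−0.97).

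Among 22 tested genes of the FGF and Hedgehog pathways, 10 were higher (45.5%, beside 11% of all genes) and 0 lower. The median was 0.70 (0.45 with the floor). Shh, the ligand that enamel epithelium secretes in the growing incisor, read 477 and 507 in mandible and 19.8 and 11.0 in ulna (4.94 ± 0.30, adjusted p = 3.64e-07, floored 3.88). Hhip, a target that binds the ligand, read 70.4 and 64.1 against 16.1 and 3.51 (3.04 ± 0.71, floored 1.01). Gli1, a transcriptional target and effector, read 44.6 and 46.7 against 1.68 and 16.7 (2.99 ± 0.90, floored 0.45) and was not called without the first (3.03) or the second (2.95) mandible array. Gli2 and Gli3 differed by 2.93 (floored 1.24) and 2.09, and Fgfr3, an FGF receptor, by 2.16. The epithelial list, which does not hold Shh, moved the same way (23 of 33 tested genes). Its part in these differences, and which cells the Shh signal came from, were not tested.

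Many genes of blood formation were lower in mandible, though not in equal shares of each lineage. Of 23 erythroid genes tested, 21 were lower and 0 higher, with a median of −1.54. Ermap, a membrane protein of erythroid cells, read 328 and 357 on the mandible arrays and 1698 and 1528 on the ulna arrays, a difference of −2.35 ± 0.09 (adjusted p = 1.98e-08). Car1, the carbonic anhydrase of red cells, read 358 and 405 against 1620 and 1725 (−2.25 ± 0.09). Epb42, Kel, Nfe2 and Rhag followed at −2.01, −1.97, −1.88 and −1.85. The list summed to 11145 and 11512 in mandible and 29473 and 29145 in ulna, and each tested member read above the array median on both mandible arrays.

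Genes of platelet-forming cells were lower in 12 of 13 tested, with 0 higher and a median of −1.67, and in 9 of 13 under the other scalings. Their median was the lowest of the lists in the fit described, but not without the second ulna array (−1.41, against −1.56 for the erythroid list) or the second mandible array (−1.76, against −1.91 for the Hox list). Itga2b, the integrin chain of platelets, read 152 and 158 in mandible and 726 and 724 in ulna (−2.35 ± 0.12, adjusted p = 9.83e-08). Tubb1, the tubulin of the platelet rim, read 350 and 320 against 1502 and 1449 (−2.26 ± 0.09). Clec1b differed by −2.02, and the chains of the platelet receptor for von Willebrand factor, Gp1bb, Gp5 and Gp9, by −1.92, −1.80 and −1.80. All arrays of mandible lay below those of ulna in each of the 13 genes, as in 4468 of all genes tested (36.2%).

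Neutrophil genes were lower in 18 of 24 tested, with 0 higher and a median of −1.43. Ncf1, a subunit of the oxidase that makes superoxide, read 378 and 384 in mandible and 1578 and 1584 in ulna (−2.17 ± 0.08, adjusted p = 8.8e-09). Csf3r, the receptor for the growth factor of the lineage, read 174 and 123 against 557 and 644 (−2.15 ± 0.16). Mpo, the granule peroxidase made in precursors, read 1819 and 1781 against 5597 and 6058 (−1.81 ± 0.07). Gfi1, a transcription factor of the lineage, and Padi4 and Pglyrp1, of the mature cell, differed by −1.91, −1.97 and −1.75. The list summed to 64999 and 64590 in mandible and 99123 and 100681 in ulna. S100a8 (−0.35) and S100a9 (−0.23), calcium-binding proteins that fill the mature cell, differed least, and were named after their values were seen.

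B-lineage genes were lower in 10 of 20 tested (50%, beside 10.9% of all genes), with 0 higher and a median of −1.04. Dntt, the polymerase that adds bases at rearranging antibody genes, read 52.1 and 55.6 in mandible and 280 and 226 in ulna (−2.34 ± 0.22, adjusted p = 8.85e-06). Jchain, of antibody-secreting plasma cells, read 656 and 555 against 2531 and 3091 (−2.33 ± 0.12). Il7r and Vpreb1, of B-cell precursors, differed by −1.95 and −1.80, and Spib and Cd22, of mature B cells, by −1.68 and −1.43. Precursor, mature and secreting stages were thus all represented, and the list summed to 3767 and 3630 in mandible and 8121 and 8370 in ulna.

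Genes of T and natural killer cells were dim. Of 8 tested, 4 were lower (50%, beside 10.9% of all genes) and 0 higher, with a median of −0.90. Ccl5 (−1.36 ± 0.30, floored −1.05) and Klrd1 (−1.27 ± 0.21) were called without each array in turn. Cd2 (−1.10) was not called with values as deposited (−0.98), nor without the second mandible array or the first ulna array (−0.89 each), nor Cd3d (−2.17, floored −0.54) without the first mandible array (−0.96) or either ulna array (−2.34 and −1.99), so that 2 to 4 genes were lower as single arrays were left out.

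Genes listed for marrow stroma were lower as well. Of 13 genes tested, 9 were lower and 0 higher, with a median of −1.47. The list is not separate from the others, since 5 of its genes stand in another list too. Among these are Adipoq and Lpl, in the fat list, and Vcam1, in the macrophage list. Lepr, the leptin receptor that marks the supporting cells of marrow, read 94.8 and 118 in mandible and 274 and 285 in ulna (−1.52 ± 0.15, adjusted p = 1.24e-05). Adipoq, encoding the hormone adiponectin of fat cells and of their marrow precursors, read 326 and 307 against 1287 and 1361 (−2.18 ± 0.09). Vcam1, an adhesion molecule of stroma and macrophages, read 481 and 526 against 1322 and 1529 (−1.62 ± 0.09). Hp and Esm1 differed by −1.86 and −1.67, and Il7, the growth factor of B-cell precursors, by −2.14 (floored −0.26), with no call on Il7 without the second ulna array (−1.97).

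Fat genes, of which Adipoq and Lpl are shared with the stroma list, were lower in 9 of 13 tested, with 0 higher and a median of −1.50. Scd1, the desaturase of fatty acid synthesis, read 298 and 274 in mandible and 2260 and 2229 in ulna (−3.09 ± 0.11, adjusted p = 9.61e-09). Fabp4, the fatty acid carrier of fat cells, read 1490 and 1475 against 4269 and 4465 (−1.68 ± 0.06), and Cebpa, a transcription factor of fat and myeloid cells, 83.5 and 54.8 against 268 and 278 (−2.13 ± 0.19). Retn, encoding resistin, and Pparg, the master regulator of fat cells, differed by −3.21 and −2.69 (floored −1.94 and −1.34) with mandible arrays that disagreed (7.55 and 25.4 for Retn, 5.16 and 42.7 for Pparg). Neither was called without the first (−3.12 and −2.72) or the second (−3.30 and −2.65) ulna array, nor Retn without the first mandible array (−2.33).

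Cell cycle genes were lower in 25 of 29 tested, with 0 higher and a median of −1.32. Mki67, a protein of dividing nuclei, read 977 and 1068 in mandible and 4060 and 3872 in ulna (−2.07 ± 0.07, adjusted p = 7.09e-09). Mcm3 and Mcm4, of the helicase that opens DNA for copying, differed by −1.86 ± 0.11 and −1.83 ± 0.10, E2f8 by −2.23, Bub1, of the spindle checkpoint, by −1.99 and Nusap1 by −1.88. The erythroid, neutrophil and B-cell lists, whose precursors divide in marrow, moved the same way, with 21, 18 and 10 genes lower, and their part in the cell cycle difference was not tested.

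Macrophage and antigen-presenting genes had smaller median differences than the blood cell, stroma, fat and cell cycle lists. Of 19 macrophage genes tested, 3 were lower and 1 higher, with a median of −0.45. These shares, 15.8% and 5.26%, stand beside 10.9% lower and 11% higher of all genes. Those lower were Vcam1 (above), Cd5l (81.1 and 84.5 against 212 and 202) and Spic, a factor of the macrophages that recycle iron (68.3 and 33.3 against 121 and 108). Spic differed by −1.38 and was not called without the second mandible array (−0.87). Folr2, of resident macrophages, was higher at 76.0 and 54.5 against 4.79 and 19.3 (2.63 ± 0.57, floored 0.95). In the MHC class II list 4 of 10 genes were lower (40%, beside 10.9% of all genes) and 0 higher, with a median of −0.45. At an adjusted p under 0.05 alone 9 were lower, beside 28.1% of all genes. The genes called lower are named next. These were the peptide loading genes H2-Ob (−2.46 ± 0.21), H2-Oa (−1.58 ± 0.22), H2-DMb2 (−1.13 ± 0.24) and H2-DMa (−1.07 ± 0.17), of which H2-DMb2 and H2-DMa were not called without the second ulna array (−0.81) and the second mandible array (−0.82). H2-DMa was also not called with values as deposited (−0.95), quantile normalization (−0.93) or 75th percentile scaling (−0.97).

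Skeletal muscle RNA was abundant at both sites. The summed signal of 37 tested muscle genes was 101216 and 98964 in mandible and 114335 and 116935 in ulna, although the ulna is labelled as freed of soft tissue. Of these genes 6 were lower in mandible (16.2%, beside 10.9% of all genes) and 0 higher, with a median of −0.53, and 31 were not called. Under the other scalings 4 were lower. The largest falls included genes of slow fibres, although Myh7 and Tnnc1, also of slow fibres, were tested and not called. Myl2, the slow and cardiac regulatory light chain, read 81.7 and 70.2 in mandible and 685 and 772 in ulna (−3.38 ± 0.18, adjusted p = 1.8e-07). Csrp3, a Z-disc protein of slow and stretched muscle, read 597 and 509 against 2291 and 2472 (−2.23 ± 0.10). Myh2, the fast oxidative IIA myosin, read 1815 and 1895 against 5600 and 5539 (−1.70 ± 0.08), and Tnnt1, the slow troponin T, differed by −1.35. Tcap (−1.02) and Myom1 (−1.01) lay at the limit of 2-fold. Neither was called with values as deposited (−0.90 and −0.89), and without the second ulna array they stood at −1.0 and −0.95 and were not called, nor was Myom1 without the first mandible array (−0.90).

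A separate list held regulators and developmental forms of muscle, of which 10 were tested. In mandible 2 were higher and 2 lower (20% each, beside 11% and 10.9% of all genes). Myh8, the neonatal myosin, read 539 and 600 in mandible and 10.1 and 16.2 in ulna, a difference of 5.36 ± 0.34 (adjusted p = 5.39e-07, floored 4.09). Tbx1, a factor of head muscle, read 82.0 and 75.6 against 37.0 and 16.5 (1.56 ± 0.43, floored 1.11), and was not called without either mandible array (1.51 and 1.60) or the second ulna array (0.98). Lbx1, a factor of migrating limb muscle precursors, read 15.9 and 17.5 in mandible and 46.4 and 48.8 in ulna (−1.63 ± 0.49, floored −0.63) and lost its call without the first mandible array (−1.55) or either ulna array (−1.67 and −1.59). Ankrd1, a stress-induced muscle protein, read 8.63 and 32.8 against 170 and 188 (−3.53 ± 0.54, floored −2.54). Myh3, the embryonic myosin, lay below the filter, and with the floor only Ankrd1 of the list was called lower.

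Vessels and nerves showed small or mixed differences. Of 20 endothelial genes tested, Emcn, a sialomucin of veins and bone capillaries, was higher at 322 and 320 against 93.4 and 88.2 (1.71 ± 0.15), while Stab2, a scavenger receptor of sinusoids, was lower at 51.1 and 54.9 against 171 and 158 (−1.75 ± 0.20) and Vwf, which platelet precursors also make, at 216 and 228 against 597 and 673 (−1.63 ± 0.11). The shares of endothelial genes called higher and lower were 5% and 10%, beside 11% and 10.9% of all genes. The median of the endothelial list was 0.14, and Cdh5 was also called higher (1.07) without the second ulna array. Of 12 Schwann cell genes, 5 were higher (41.7%, beside 11% of all genes) and 0 lower, with a median of 0.20. Ncmap, a protein of non-compact myelin, read 185 and 146 against 11.6 and 9.03 (3.89 ± 0.37, floored 2.30), Pmp22, which fibroblasts also express, 1569 and 1448 against 422 and 453 (1.67 ± 0.08), and Mal differed by 1.74 (floored 1.15). Ugt8a, of myelin lipid synthesis, differed by 1.35 and was not called without the second mandible array (1.31).

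Mbp, the myelin basic protein gene, showed that the probe set matters. Its brightest probe set read 905 and 965 in mandible and 233 and 237 in ulna (1.87 ± 0.09). Of 8 probe sets tested, 6 were higher in mandible, but another was lower, at 18.1 and 35 against 114 and 127 (−2.37, adjusted p = 0.000226). The gene also gives rise to longer Golli transcripts, which are known from blood-forming cells, and which transcripts each probe set reads was not tested. Among 11 neuronal genes, Stmn2 (116 and 113 against 22.1 and 22.8, 2.24 ± 0.31, floored 1.78), Tubb3 (2.19, floored 0.70) and Gap43 (3.83, floored 0.82), all of growing axons, were higher, and Gap43 was not called without the first mandible array (3.54). Snap25 was lower at 0.457 and 0.899 against 23.4 and 12.1, under the median on all 4 arrays, with a floored difference of 0, and was not called by limma with 4 arrays only (adjusted p = 0.252). Of the neuronal genes tested, 27.3% were thus higher and 9.09% lower, beside 11% and 10.9% of all genes. Without the first mandible array Syt1 was also called lower (−1.27), and the median of the list moved from 0.06 to between −0.53 and 0.06 as single arrays were left out.

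The mitochondrial respiratory chain served as a set of genes active in every cell. Of 35 tested, 0 were called in either direction by limma with the limit of 2-fold, while 16 had an unadjusted p under 0.05. At an adjusted p under 0.05 alone 4 were higher and 9 lower, beside 19.9% and 28.1% of all genes. Its median of −0.04 turned positive under other scalings (0.06 to 0.08), where 1 gene, Ndufa4 (0.92 here), was called higher, as it was without the second mandible or the second ulna array, so no direction is given. Cox7a2 and Cox6a1, the brightest members, read 5610 and 5425 against 5373 and 5662 and 5564 and 5094 against 4772 and 4957, and differed by −0.12 ± 0.06 and 0.01 ± 0.06.

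The 15 largest fitted falls were Zic1, Hoxa9, Palm, Stfa3, Tmprss3, Il10ra, Mrap, Oas3, Ankrd1, Dennd1c, Sp110, Myl2, Vac14, Retn and Lockd, from −5.0 to −3.17. All but Myl2 lay below the array median on both mandible arrays, and Zic1, Tmprss3, Il10ra, Mrap, Sp110, Vac14 and Lockd were not called with the floor (−0.92 to −0.32). Mrap and Vac14 read no more than 52.9 in ulna. Mrap was not called without any of the 4 arrays (−3.94 to −3.50), Vac14 and Lockd not without either ulna array (−3.33 and −3.37 for Vac14, −3.06 and −3.28 for Lockd), and Tmprss3 not without the first ulna array (−3.61).

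Ordered by the floored difference instead, an order chosen after the values had been seen, the falls were led by genes that lay further above the array median in ulna. These were Myl2, Scd1, Olfm4, Stfa2l1, Igha, Ankrd1, Fgr, Ighv14-2, H2-Ob, Hoxa9, F5, Ermap, Itga2b, Dntt and Tmem71. Igha, the heavy chain of IgA made by plasma cells, read 1060 and 810 in mandible and 5013 and 5248 in ulna (−2.59 ± 0.11, adjusted p = 4.35e-08). Olfm4 and Stfa2l1, genes of neutrophils, read 72.2 and 77.1 against 506 and 561 and 86.5 and 106 against 634 and 619. Fgr, a kinase of myeloid cells, read 53.0 and 68.2 against 307 and 307. F5, coagulation factor V, which platelets store, read 116 and 110 against 519 and 611. Apart from Myl2, Ankrd1, Hoxa9 and Tmem71, the named genes of this order are known from blood cells, plasma cells or fat, or, for H2-Ob, from antigen presentation.

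**Figure D5:**
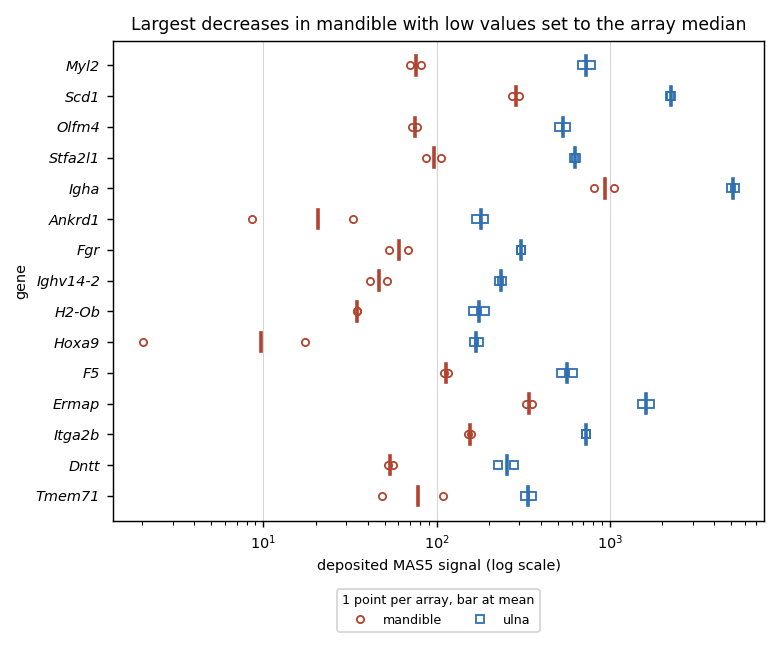
Deposited MAS5 signal (x axis, log scale, without units) of the 15 genes with the largest decreases in mandible once signals under the array median were set to that median (y axis), with 1 point per array and a bar at the mean of each site. Scd1, Igha, Ermap and Itga2b fall between tight pairs of arrays, while Hoxa9 and Ankrd1 read under the array median on both mandible arrays, which differ from each other.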

How the data were processed

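RNA from bone ground in liquid nitrogen was labelled in 1 cycle and hybridised to Affymetrix Mouse Genome 430 2.0 arrays, 2 for each site. The deposited values are MAS5 signals, an intensity on a linear scale, for which the authors' software set the 2% trimmed mean of every array to 100. The tool is named in the submitters' processing notes and no version is given in the sources used here. MAS5 subtracts a local background and weighs mismatch probes, so low signals are noisy, and precision is limited by the few arrays. All 6 value columns of the table were matched to a site through the array titles.

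Signals were divided by the array median and log2 was taken with no offset. The platform annotation gave 1 symbol to 34958 probe sets, several to 932 and none to 9211, and 64 control probe sets were left out. Those with several symbols or none entered the fit without being assigned to a gene, and symbols were looked up in a RefSeq table of GRCm38.p6. The model held a mean for each of the sites and was fitted in limma 3.58.1 (R 4.3.3) with a trended prior for the variances (3 residual and 7.67 prior degrees of freedom, median SD between arrays of a site 0.194). The Benjamini-Hochberg adjustment ran over the 25233 probe sets tested (55.9%). Signals at a site are given for each array, ± is the standard error of the fitted difference on the log2 scale, and a fold is a ratio of geometric means of scaled signals. The fit was tested on simulated data. Promoters came from RefSeq windows on GRCm38.p6.

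The sites, the 35 gene lists and the thresholds were chosen with earlier results of these data known. Named were the 15 largest changes in each direction among called genes whose arrays do not overlap and lie above the array median on both arrays of the higher site, up to 6 called members of each list with the largest changes, the 2 highest members where none was called, every member behind a count of 5 or fewer, and Dspp, Amelx, Col1a1, Shox2, Tbx5 and Hoxa10. Genes named for another reason are marked as such in the text or belong to a family, list or order described there. Alternatives were the values as deposited, quantile and 75th percentile scaling, other filters, an offset of 0.25, a floor at the array median, a fit without trend or without moderation, 4 arrays only, the replicate number as a block, each array left out, adjusted p alone, and genes in place of probe sets. The rat arrays of the study were not analysed here.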

Additional observations from a re-analysis of the deposited data

How the results depend on the processing

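The counts of called probe sets (5224, of which 2362 higher and 2862 lower in mandible) stayed within 1.5 times under the other scalings, the offset, the floor, the fit without trend and the fit on 4 arrays, at 4233 to 5241 called, but more were higher than lower with values as deposited (2714 and 2272), quantile normalization (2566 and 2434) and 75th percentile scaling (2684 and 2345). They moved further, in part because fewer probe sets were tested, with a filter at the 75th percentile (3107 called, 1351 higher, 1756 lower), and without moderation of variances (3455, 1573 and 1882). Adjusted p alone gave 10961, 4237 and 6724, and a fit on genes in place of probe sets 2713, 1366 and 1347, which follow from the limits and units themselves. As single arrays were left out, 4733 to 5187 were called, 1935 to 2444 higher and 2472 to 2906 lower. Whether arrays of the same number share mice is not given in the sources used here. The correlation of deviations between mandible and ulna arrays of the same number was −0.01. It cannot decide the question, since technical spread can hide a shared source. The replicate block gave 5183, 2337 and 2846.

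Of 375 called genes in the lists and among the largest changes, none changed direction and 117 lost the call under 1 or more alternatives. Among alternatives that kept every array, most calls were lost without moderation (79) and with the floor (33). Without 1 array 73 genes lost the call, and leaving out either mandible array cost more calls than the floor did. With 2 arrays a site, and an unstated number of mice behind each, what varies between mice was not measured, and signals under the array median carry little information on size.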

Other observations

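Among 5369 genes with several tested probe sets, 8 had probe sets called in opposite directions, namely Ackr4, Cux1, Ehd2, Gfra2, Mbp, Pde4dip, Ptcd1 and Sptbn1. Cux1, a homeobox gene with several promoters, had 7 tested probe sets, of which 1 was lower at 110 and 93.8 in mandible and 199 and 211 in ulna (−1.13) and another higher at 55.7 and 93.6 against 33.8 and 27.5 (1.13). Ehd2, a membrane-shaping protein of caveolae, read 138 and 114 against 286 and 289 on one probe set (−1.31) and 102 and 122 against 51.8 and 47.7 on another (1.05). Sptbn1, a spectrin chain, read 310 and 305 against 505 and 673 (−1.04) and 198 and 179 against 71.3 and 67.6 (1.33). For these genes no single direction can be given from the arrays, and which transcripts the probe sets read was not tested.

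A further 842 called probe sets carried no symbol or several, and are not described by gene. Calb1, encoding the calcium buffer calbindin of ameloblasts, stands in no list and was named after its values were seen. It read 5028 and 5272 in mandible and 31.5 and 19.9 in ulna (7.57 ± 0.19, adjusted p = 8.34e-10, floored 7.26), and Chil4, a chitinase-like protein, read 1906 and 1839 against 13.1 and 23.0 (6.63 ± 0.25, floored 5.81).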
